A study of Homo sapiens with 6 samples.

Results

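The transcripts described here are those of 10 genes of the interleukin 6 (IL-6) family, out of 78932 genes listed in the deposited table of estimated counts. They were taken by name: the ligands IL6, IL11, LIF, CLCF1 and CTF1, the receptor chains IL6R, IL6ST, LIFR and OSMR, and the transcription factor STAT3. All libraries are labelled as RNA of A549, an established line from a human lung adenocarcinoma; marker genes given below go against that label in 1 group. The group A549-OE-HIF1b had 3 libraries from cells overexpressing HIF-1β, the ARNT product, which the hypoxia-inducible α subunits and the aryl hydrocarbon receptor need as a partner to bind DNA. The group A549-WT had 3 libraries labelled wild type. Both groups carry the treatment entry transfection, and the sources used here do not say whether A549-WT cells received an empty vector, whether the overexpression was transient or stable, or whether the cells were 1 clone. The comparison asks which transcripts differ between libraries labelled as overexpressing HIF-1β and libraries labelled wild type. The labels do not say whether replicates were grown separately, so the p-values speak only of library-to-library spread, which may be technical.

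Cytokines of the IL-6 family signal through a shared receptor chain, gp130, which is encoded by IL6ST and present on most cells. IL-6 and IL-11 first bind their own receptors, IL6R and IL11RA, and then gp130, whereas LIF and cardiotrophin 1 (CTF1) bring gp130 together with LIFR, and oncostatin M (OSM) brings it together with OSMR or LIFR. The receptors activate JAK kinases and STAT3, and STAT3 induces SOCS3, which binds gp130 and shuts the signal down. In lung adenocarcinoma cells, IL-6 made by the tumour cells themselves is a known activator of STAT3.

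The libraries held 17192161 to 24454236 counts. ARNT itself was at 141, 146 and 130.0 CPM in A549-OE-HIF1b, against 39.0, 50.04 and 42.2 CPM in A549-WT, which is 3.18-fold higher (CPM are library-scaled counts, with TMM factors; log2 fold change 1.67, SE 0.095, adjusted p = 6.52e-08 by the edgeR quasi-likelihood test). Genes that mark the cell line also separated the groups. MTAP, which A549 is known to have lost together with CDKN2A, was at 0.172 to 0.64 CPM in A549-OE-HIF1b and at 72.4 to 81.9 CPM in A549-WT, and CDKN2A had 0 counts in every library. SMARCA4, known to be mutated in A549, averaged 15.6 ± 1.83 CPM in A549-OE-HIF1b and 201 ± 4.33 CPM in A549-WT (SD, n = 3 each, as for every mean below). ALDH1A1 averaged 8835 ± 741 CPM in A549-OE-HIF1b and 57.4 ± 14.6 CPM in A549-WT, and TBXT had 3 counts in all in A549-OE-HIF1b and averaged 2076 ± 294 CPM in A549-WT. The MTAP transcript therefore goes against the A549 label in the libraries labelled wild type, and A549-WT stands below for the libraries so labelled, whatever their cells. The deposited table also holds columns named for H460, another human lung cancer line, which match no sample of the series; whether columns were exchanged was not tested. These genes separate the same libraries as every family member that differed below, so a difference tied to HIF-1β and a difference tied to the background of the cells cannot be told apart. Of the epithelial markers, KRT8 averaged 3762 ± 196 CPM in A549-OE-HIF1b and 1416 ± 62.1 CPM in A549-WT, while EPCAM had 211 counts in all in A549-OE-HIF1b and 1 in A549-WT. KRT19 went the other way, at 0.497 ± 0.132 CPM in A549-OE-HIF1b and 208 ± 17.1 CPM in A549-WT; the other 5 epithelial markers were higher in A549-OE-HIF1b. Summed epithelial markers ranged over 7880 to 8648 CPM in A549-OE-HIF1b and 2571 to 2794 CPM in A549-WT. The leukocyte markers PTPRC and CD3E had 0 counts in every library, and the whole leukocyte list summed to 35.0 to 41.9 CPM in A549-OE-HIF1b and 15.9 to 16.5 CPM in A549-WT, nearly all of it CD68 and CD14. The 4 endothelial markers summed to at most 0.0863 CPM in A549-OE-HIF1b and at most 0.243 CPM in A549-WT. The 5 fibroblast markers summed to 7.94 to 8.63 CPM in A549-OE-HIF1b, nearly all of it COL1A1, and to 1.84 to 2.37 CPM in A549-WT, with COL1A2 at 0 counts in every library. PDGFRB was lower in A549-OE-HIF1b, with 3 counts against 56 in A549-WT (adjusted p = 0.000114), but passed the filter on low counts only through A549-WT. DCN, not tested, had 0 counts in A549-OE-HIF1b and 15 in A549-WT. The part of these marker differences in the results was not tested.

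Of the 10 family members, 8 differed between the groups at an adjusted p under 0.05, where 74.0% of all 16091 tested genes did. IL11, IL6R and STAT3 were higher in A549-OE-HIF1b (3 of 10, against 38.3% of tested genes), and IL6, LIF, CTF1, LIFR and OSMR were lower (5 of 10, against 35.7%). CLCF1 and IL6ST did not pass the test. For the same 8 members every library of one group lay beyond every library of the other, as for 77.3% of tested genes. All but IL6R of these (7 of 10) also differed by over 1 on the log2 scale, as did 37.6% of tested genes. The shares called and not overlapping lie near those of the whole table. All 10 members passed the filter on low counts, but IL6 and CTF1 passed only through A549-WT and IL11 only through A549-OE-HIF1b, so those genes had to differ once they were tested. The median log2 fold change of the members was -0.49, against 0.034 for all tested genes. In bulk RNA, fewer cells that make a transcript and less of it per cell cannot be told apart.

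Among the ligands, IL6 and IL11 lay at opposite ends. IL6 (ENSG00000136244; chromosome 7, 22725884 to 22732002, plus strand, GRCh38) encodes IL-6, the inflammatory cytokine that gives the family its name. It had 0 counts in all 3 A549-OE-HIF1b libraries, against 13.6, 27.9 and 18.2 CPM in A549-WT. The A549-OE-HIF1b group held 0 counts and the A549-WT group 1204. A count of 0 over the group allows up to 3 counts (0.0439 CPM), and set against the 1204 counts, both over the summed totals of their group, IL6 was at least 458-fold lower in A549-OE-HIF1b (adjusted p = 4.87e-07), a limit that covers counting error only. The A549-WT libraries themselves spread widely, with a coefficient of variation of 36.6%.

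IL11 (ENSG00000095752; chromosome 19, 55364389 to 55370463, minus strand) encodes a cytokine known for its role in fibrosis and in tumours of epithelial origin. Its levels were 21.4, 14.5 and 18.7 CPM in A549-OE-HIF1b, against 0.303, 0.205 and 0.0838 CPM in A549-WT, where the 3 libraries held 11 counts in all. Every A549-OE-HIF1b library lay far above every A549-WT library, and the mean was 92.3-fold higher (log2 fold change 6.58, SE 0.31, adjusted p = 1.56e-08).

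Because these ligands were each all but absent from a different group, the 250 bases before their annotated starts are shown, as given by RefSeq on GRCh38.p14 for chr7:22726950-22727199 (plus strand, IL6) and chr19:55370464-55370713 (minus strand, IL11), 5′ to 3′. The starts are those of RefSeq, and the IL6 window lies inside the gene span given above, which begins further upstream. Capitals mark matches to motifs searched on both strands.
IL6: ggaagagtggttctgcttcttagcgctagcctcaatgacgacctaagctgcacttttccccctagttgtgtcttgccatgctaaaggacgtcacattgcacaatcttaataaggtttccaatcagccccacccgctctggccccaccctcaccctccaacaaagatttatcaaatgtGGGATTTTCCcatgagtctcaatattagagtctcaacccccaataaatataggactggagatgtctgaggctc
IL11: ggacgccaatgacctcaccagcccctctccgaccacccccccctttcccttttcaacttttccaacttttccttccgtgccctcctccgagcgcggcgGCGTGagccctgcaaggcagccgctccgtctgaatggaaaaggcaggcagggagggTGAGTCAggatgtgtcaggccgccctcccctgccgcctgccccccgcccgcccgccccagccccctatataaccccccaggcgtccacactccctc
The IL6 capitals are a match to the NF-κB motif (GGGA, any base, then TTTCC), 73 to 64 bases before the start. This motif was present in 0.558% of 35116 RefSeq promoter windows of 300 bases (250 before the start and 50 after it). The IL11 capitals are a match to GCGTG, a core of the HIF binding site, beginning 152 bases before the start, and a match to the AP-1 motif TGANTCA, 96 to 90 bases before it. GCGTG was present in 36.5% of all windows and TGANTCA in 7.71%. The other HIF core, ACGTG, present in 21.4% of windows, and the STAT motif TTCNNNGAA, present in 7.66%, had no match in the IL6 and IL11 windows. A match is a stretch of letters and does not show that a factor binds there.

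RefSeq windows were found for 7 of the 10 members, 9 windows in all, since LIFR has 3 starts; LIF, CLCF1 and CTF1 had no entry. The STAT motif matched in the windows of the outer and middle LIFR starts, and ACGTG matched in the same windows and in that of OSMR. GCGTG matched at 2 places in the STAT3 window and at 1 place each in the middle and inner LIFR windows. TGANTCA matched in the IL6R and OSMR windows after the start, and the IL6ST window held no match to any of the motifs. None of the 14 matches in member windows overlapped another.

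LIF (ENSG00000128342; chromosome 22, 30240447 to 30246851, minus strand), which encodes leukemia inhibitory factor, a cytokine that keeps mouse embryonic stem cells undifferentiated, was the most abundant of the 5 ligands in both groups, in CPM and per length. It was measured at 74.4, 69.4 and 70.9 CPM in A549-OE-HIF1b, against 172, 221 and 181 CPM in A549-WT. The groups did not overlap, and LIF was 2.68-fold lower in A549-OE-HIF1b (log2 fold change -1.42, SE 0.095, adjusted p = 2.31e-07). OSM, another ligand gene of the family, lies 16.0 kilobases from LIF and had 1 count in A549-OE-HIF1b and 0 counts in A549-WT.

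CTF1 (ENSG00000150281; chromosome 16, 30896607 to 30903560, plus strand) encodes cardiotrophin 1, named for its action on heart muscle cells. It stood at 0, 0.0457 and 0.129 CPM in A549-OE-HIF1b, 4 counts in all, against 2.25, 1.13 and 1.55 CPM in A549-WT. CTF1 was thus low everywhere and 28.1-fold lower in A549-OE-HIF1b (log2 fold change -4.67, SE 0.65, adjusted p = 7.14e-05). The size rests on few counts, and without A549-OE-HIF1b replicate 3 the ratio of means was 71.7-fold.

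CLCF1 (ENSG00000175505; chromosome 11, 67364168 to 67374177, minus strand) encodes a ligand of the ciliary neurotrophic factor receptor. Its level was 13.3, 13.1 and 14.1 CPM in A549-OE-HIF1b, against 9.83, 16.2 and 11.7 CPM in A549-WT. The A549-WT libraries lay on both sides of the A549-OE-HIF1b ones, and the log2 fold change was 0.098 (95% interval -0.279 to 0.474, adjusted p = 0.617). CLCF1 overlaps an annotated gene on the same strand, AP003419.1, to which 2846 counts in A549-OE-HIF1b and 990 in A549-WT were assigned, more than to CLCF1 itself (923 and 759), so how reads were shared between them is uncertain. It also overlaps RAD9A on the opposite strand, which held 1452 counts in A549-OE-HIF1b and 332 in A549-WT. The strand setting is not stated, so reads from that overlap could be assigned to either gene.

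**Figure D1:**
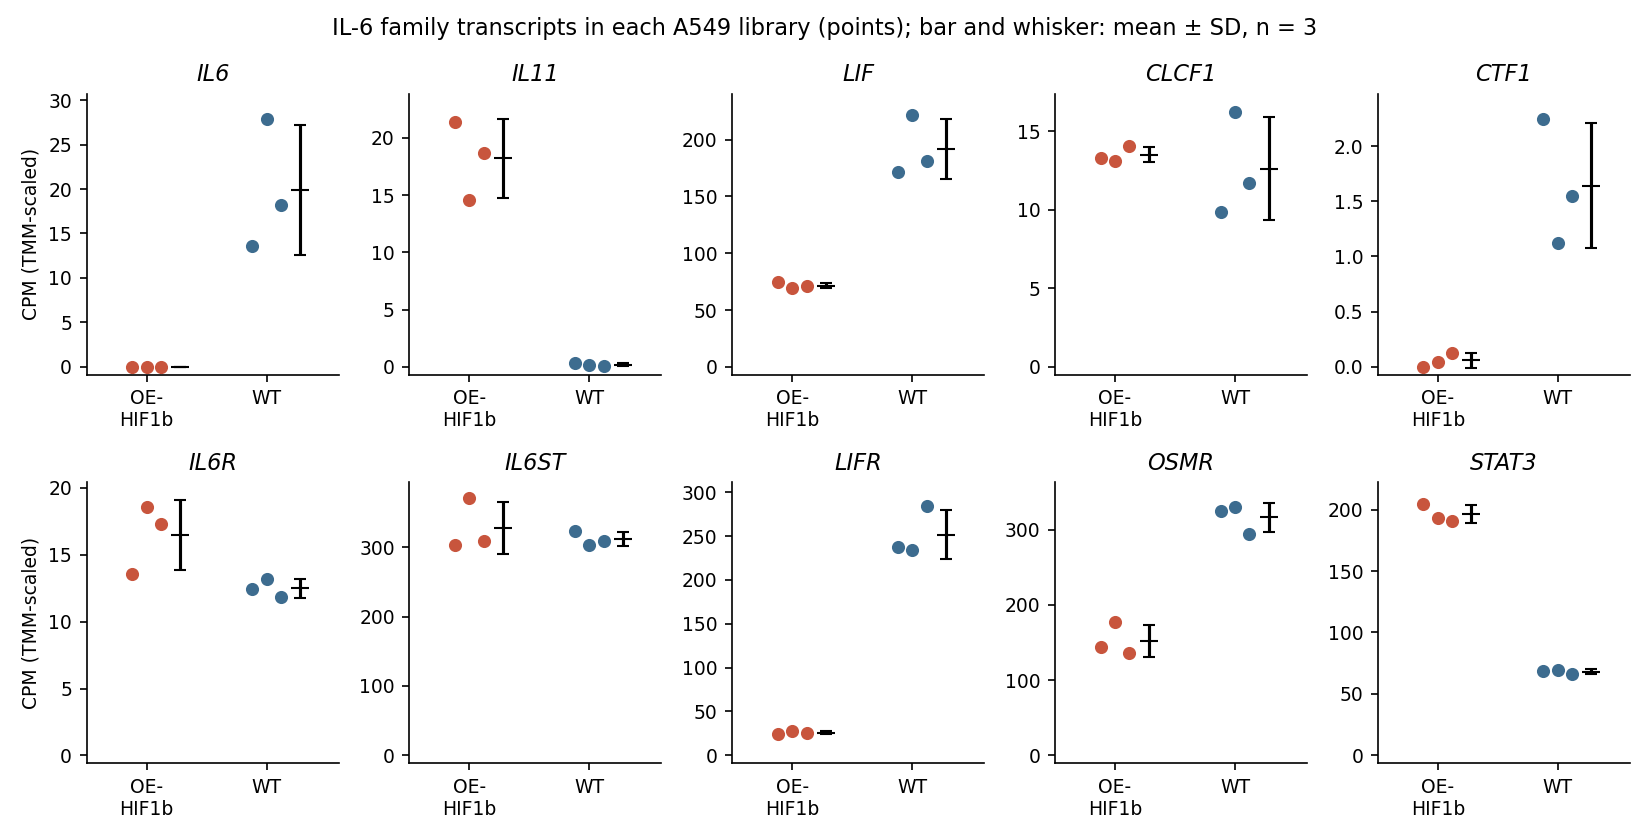
Levels of the 10 family members in each library, in TMM-scaled CPM on linear axes, with A549-OE-HIF1b left and A549-WT right in each panel; points are libraries, and bars with whiskers are mean ± SD (n = 3). IL6 sits at 0 and IL11 at 14.5 to 21.4 CPM in A549-OE-HIF1b, against 13.6 to 27.9 and 0.0838 to 0.303 CPM in A549-WT, while the points of IL6ST and CLCF1 overlap between groups.

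The receptor chains differed in the partners of gp130 and not detectably in gp130 itself. IL6ST (ENSG00000134352; chromosome 5, 55935095 to 55994993, minus strand) was at 304, 371 and 309.7 CPM in A549-OE-HIF1b, against 324, 303 and 309 CPM in A549-WT. The ranges overlapped, and the log2 fold change was 0.074 (95% interval -0.112 to 0.26, adjusted p = 0.441). An interval of this width leaves room for small differences in either direction.

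LIFR (ENSG00000113594; chromosome 5, 38474963 to 38608354, minus strand) encodes the chain that joins gp130 to bind LIF and cardiotrophin 1. It was detected at 24.4, 27.7 and 25.9 CPM in A549-OE-HIF1b, against 237, 234 and 284 CPM in A549-WT. LIFR was 9.68-fold lower in A549-OE-HIF1b (log2 fold change -3.28, SE 0.097, adjusted p = 3.57e-10), with little spread inside either group. LIF was lower in the same libraries, as was every gene called lower, and a link between LIF and LIFR was not tested.

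OSMR (ENSG00000145623; chromosome 5, 38845858 to 38945596, plus strand), which encodes the chain through which oncostatin M acts with gp130, lies 237.5 kilobases from LIFR. Its values were 144, 177 and 137 CPM in A549-OE-HIF1b, against 326, 329.9 and 294 CPM in A549-WT. OSMR was 2.07-fold lower in A549-OE-HIF1b, and the groups did not overlap (log2 fold change -1.05, SE 0.098, adjusted p = 3.01e-06). OSMR overlaps RICTOR, which encodes a subunit of the mTORC2 kinase complex, on the opposite strand; RICTOR held 3765 counts in A549-OE-HIF1b and 3723 in A549-WT. Whether counting used strand is not stated, so reads from the overlap could be assigned to either gene.

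IL6R (ENSG00000160712; chromosome 1, 154405193 to 154469450, plus strand), the specific IL-6 receptor that also exists as a shed soluble form, was at 13.6, 18.6 and 17.3 CPM in A549-OE-HIF1b, against 12.4, 13.2 and 11.8 CPM in A549-WT. It was 1.32-fold higher in A549-OE-HIF1b (log2 fold change 0.40, SE 0.14, adjusted p = 0.0199), with the lowest A549-OE-HIF1b library just above the highest A549-WT library. This call was lost without A549-OE-HIF1b replicate 2 (adjusted p = 0.0768) or 3 (0.0631) and without A549-WT replicate 1 (0.0541) or 3 (0.0756). The libraries in which IL6R was higher were those with no IL6 counts, and a link between IL6R and IL6 was not tested.

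STAT3 (ENSG00000168610; chromosome 17, 42313324 to 42388568, minus strand), the transcription factor on which the family's signals converge, was at 205, 193 and 191 CPM in A549-OE-HIF1b, against 68.9, 69.6 and 65.8 CPM in A549-WT. Both groups were tight, with coefficients of variation of 3.84% in A549-OE-HIF1b and 2.93% in A549-WT. STAT3 was 2.88-fold higher in A549-OE-HIF1b (log2 fold change 1.53, SE 0.066, adjusted p = 6.69e-09). Transcript counts do not report phosphorylation, the step that activates the protein.

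To set the members against each other, CPM were divided by the length of all annotated exons of the gene (GENCODE release 29), which does not follow which isoforms the cells use. In A549-OE-HIF1b the order began with IL6ST, at 35.3 ± 4.02 CPM per kilobase, followed by STAT3 at 22.3 ± 0.856, OSMR at 21.3 ± 2.97 and LIF at 18.0 ± 0.649 CPM per kilobase. In A549-WT it began with LIF, at 48.3 ± 6.64 CPM per kilobase, followed by OSMR at 44.1 ± 2.73, IL6ST at 33.6 ± 1.15 and LIFR at 21.2 ± 2.35 CPM per kilobase. STAT3 was thus second in A549-OE-HIF1b and sixth in A549-WT, at 7.73 ± 0.226 CPM per kilobase, whereas LIFR was eighth in A549-OE-HIF1b, at 2.19 ± 0.138 CPM per kilobase. Between neighbours in the order, the library ranges overlapped in A549-OE-HIF1b for STAT3 and OSMR, CLCF1 and IL11, IL6R and LIFR, and CTF1 and IL6. In A549-WT they overlapped for LIF and OSMR, IL6 and STAT3, and STAT3 and CLCF1.

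**Figure D2:**
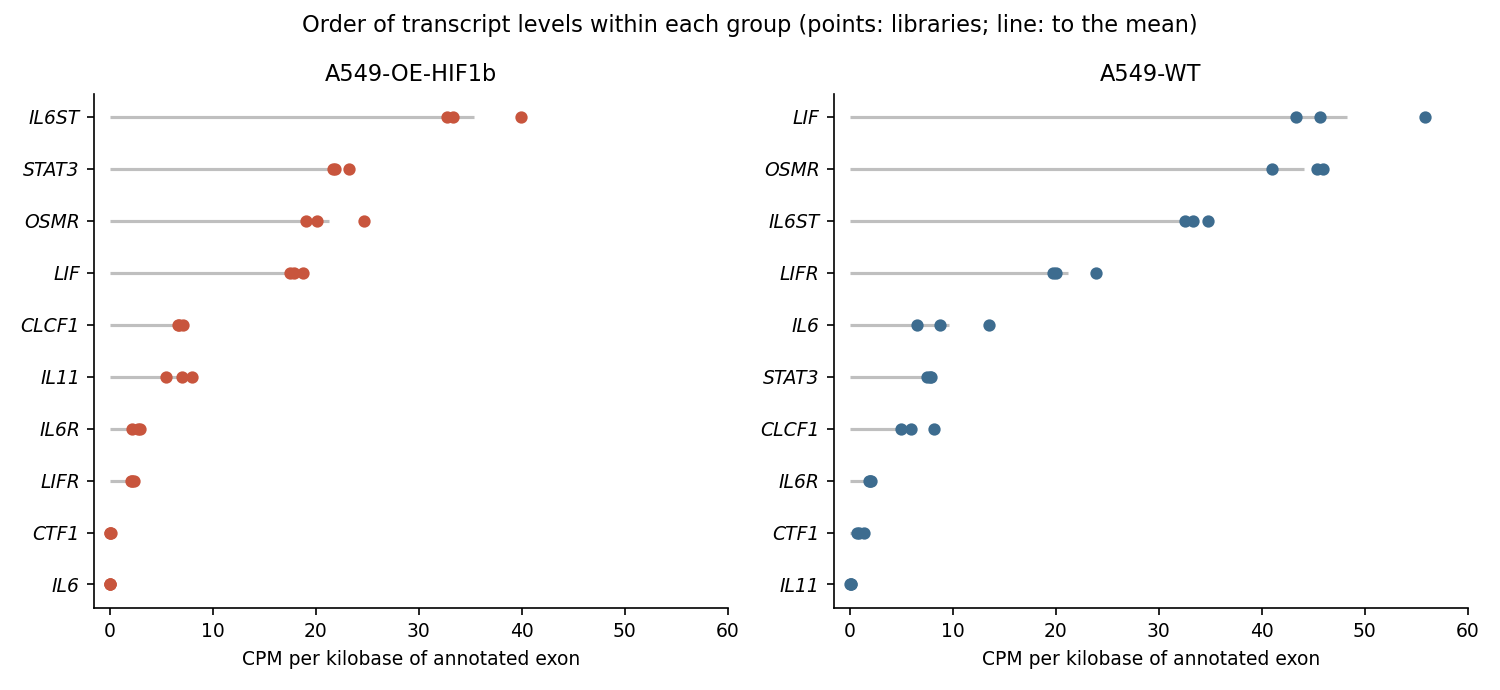
Levels of the members within A549-OE-HIF1b (left) and A549-WT (right), in CPM per kilobase of annotated exon, ordered from the highest mean; points are libraries and grey lines reach to the mean. IL6ST leads the A549-OE-HIF1b order at 35.3 CPM per kilobase, and LIF leads the A549-WT order at 48.3.

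Set against IL6ST in the same library, the partner chains shifted in unequal measure. LIFR amounted to 6.29%, 5.84% and 6.56% of the IL6ST level per kilobase in A549-OE-HIF1b, against 57.4%, 60.6% and 71.8% in A549-WT. OSMR amounted to 61.5%, 61.7% and 57.2% in A549-OE-HIF1b, against 130.3%, 141% and 123% in A549-WT, so that it exceeded IL6ST only in the A549-WT libraries. IL6R stayed a small share, at 7.23 ± 0.806% of IL6ST in A549-OE-HIF1b and 5.77 ± 0.441% in A549-WT.

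The make-up of the ligands also differed. LIF gave 56.9 ± 1.87% of the summed ligand level per kilobase in A549-OE-HIF1b and 74.2 ± 2.80% in A549-WT, the largest share in every library. IL11 gave 21.4 ± 2.79% in A549-OE-HIF1b and 0.117 ± 0.0771% in A549-WT. CLCF1, whose own level did not differ detectably, gave 21.6 ± 1.28% in A549-OE-HIF1b and 9.67 ± 0.829% in A549-WT. IL6 gave none of it in A549-OE-HIF1b and 14.4 ± 2.78% in A549-WT. These shares sum to a whole, so each depends on the others.

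**Figure D3:**
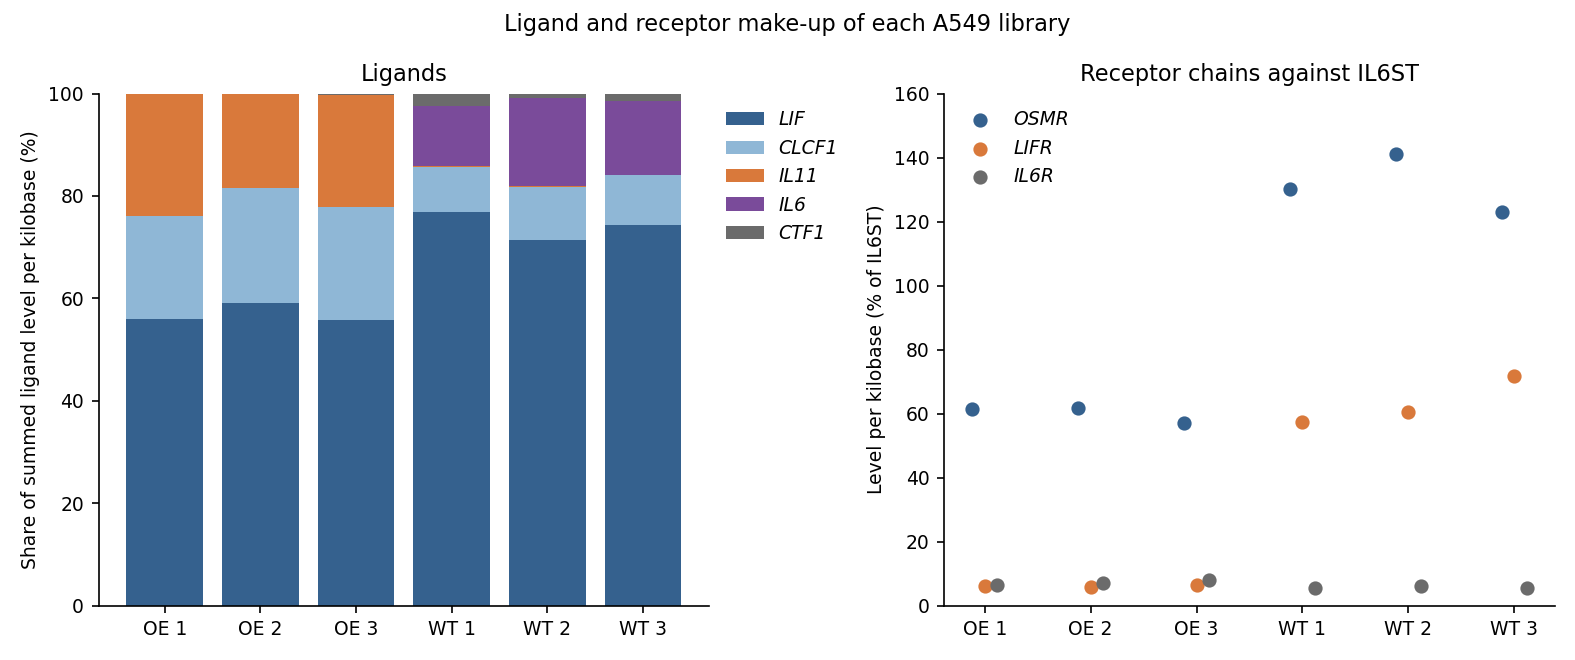
Left, share of each ligand in the summed ligand level per kilobase of each library (%, stacked bars), with A549-OE-HIF1b libraries (OE) left of A549-WT libraries (WT). Right, levels per kilobase of OSMR, LIFR and IL6R as a percentage of IL6ST in the same library (points); LIFR sits at 5.84% to 6.56% in A549-OE-HIF1b and at 57.4% to 71.8% in A549-WT.

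Beyond the members, 87 other genes of the pathway were looked up in 5 lists. Of the 73 that were tested, 36 were higher in A549-OE-HIF1b, 22 were lower and 15 did not pass, so that 79.5% were called against 74.0% of all tested genes. Some of these too passed the filter through 1 group alone. Among those named below, IL31RA, PTPN6, FGA, LBP and TWIST1 passed only through A549-OE-HIF1b, so they had to differ once tested. IL12A reached the level of the filter in every A549-WT library but not in every A549-OE-HIF1b library, and JAK3 the reverse. Their tests therefore also lean on the group where they were higher. The median log2 fold change of the 73 tested genes was 0.43, against 0.034 for all tested genes.

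Of 12 other ligands and receptors, 6 were tested, with 2 higher, 2 lower and 2 not passing. That is 66.7% called, 33.3% higher and 33.3% lower, against 74.0%, 38.3% and 35.7% of all tested genes. IL11RA, the specific receptor of IL-11, was at 6.70, 9.01 and 7.07 CPM in A549-OE-HIF1b, against 1.93 to 2.61 CPM in A549-WT (3.38-fold higher, log2 fold change 1.76, SE 0.21, adjusted p = 2.46e-05). IL11 was higher in the same libraries, as was every gene called higher, and a link between IL11 and IL11RA was not tested. CNTFR, the receptor through which CLCF1 acts, had 1 count in A549-OE-HIF1b and 2 counts in A549-WT, under the limit of 3 counts. IL31RA, a receptor related to gp130 that lies 12.2 kilobases from IL6ST, held 299 counts in A549-OE-HIF1b and 2 in A549-WT, a ratio of 131 (95% counting interval 36.0 to 1087, adjusted p = 7.54e-07). IL12A, a subunit shared by interleukins 12 and 35, averaged 0.481 ± 0.182 CPM in A549-OE-HIF1b and 1.67 ± 0.529 CPM in A549-WT (adjusted p = 0.00223).

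All 13 tested kinases, adaptors and other STAT factors passed the test, 9 of them higher and 4 lower in A549-OE-HIF1b, where 74.0% of all tested genes passed, 38.3% higher and 35.7% lower. JAK1, the kinase on which gp130 signalling mainly depends, was 1.36-fold higher, at 229 ± 5.85 CPM in A549-OE-HIF1b and 169 ± 2.49 CPM in A549-WT (adjusted p = 5.91e-05). JAK2 was 1.75-fold higher, at 17.5 ± 3.26 CPM in A549-OE-HIF1b and 10.01 ± 0.313 CPM in A549-WT (adjusted p = 0.000425). TYK2 was at 53.4 ± 2.68 CPM in A549-OE-HIF1b and 61.3 ± 4.54 CPM in A549-WT (adjusted p = 0.0388), with overlapping ranges, and 8 of 12 alternatives lost this call (adjusted p = 0.0536 to 0.336). JAK3, best known from lymphocytes, was at 5.41, 5.17 and 2.63 CPM in A549-OE-HIF1b, against 0.85, 0.46 and 1.01 CPM in A549-WT (5.70-fold higher, adjusted p = 0.000123). The adaptor GAB1 was 3.53-fold higher, and STAT4, the factor that answers interleukin 12, was 2.36-fold higher. SHC1, an adaptor that links receptors to the RAS pathway, was lower at 283 ± 22.9 CPM in A549-OE-HIF1b against 853 ± 80.3 CPM in A549-WT. PTPN11, which encodes the phosphatase SHP2 that docks on gp130, was 1.55-fold lower, and STAT6, the factor that answers interleukin 4, was 1.24-fold lower.

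Of 16 tested negative regulators and receptor-shedding proteases, 8 were higher, 4 were lower and 4 did not pass. That is 75% called, 50% higher and 25% lower, against 74.0%, 38.3% and 35.7% of all tested genes. SOCS3 was at 39.0, 40.8 and 37.4 CPM in A549-OE-HIF1b, against 132, 188 and 170.2 CPM in A549-WT, 4.17-fold lower (log2 fold change -2.06, SE 0.12, adjusted p = 6.84e-08). STAT3 and SOCS3, the inhibitor that STAT3 induces, differed in opposite directions between these libraries, and a link between their levels was not tested. SOCS2 was 2.58-fold lower and SOCS4 1.82-fold lower, while CISH, a related inhibitor induced by STAT5, was 6.57-fold higher at 4.75 ± 0.511 CPM in A549-OE-HIF1b against 0.724 ± 0.158 CPM in A549-WT. PTPN6, which encodes the phosphatase SHP1, averaged 29.6 ± 4.17 CPM in A549-OE-HIF1b and 0.0823 ± 0.0209 CPM in A549-WT, where it held 5 counts in all (adjusted p = 3.85e-10). PIAS1, a SUMO ligase that restrains STAT factors, was 2.01-fold higher. ADAM17, a protease that sheds IL6R from the cell surface, was 1.46-fold lower at 105 ± 4.05 CPM in A549-OE-HIF1b against 153 ± 12.9 CPM in A549-WT (adjusted p = 6.66e-05). ADAM10, the other shedding protease of the list, was 1.96-fold higher, at 218 ± 7.15 CPM in A549-OE-HIF1b against 111 ± 4.69 CPM in A549-WT (adjusted p = 2.35e-07). Shedding itself was not measured.

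Of 25 tested genes known to respond to STAT3, 11 were higher, 9 were lower (the member OSMR among them) and 5 did not pass. That is 44% higher and 36% lower, near the 38.3% and 35.7% of all tested genes. FGA, the fibrinogen α chain, was at 41.4, 47.0 and 41.7 CPM in A549-OE-HIF1b, against 0.182, 0.0512 and 0.0838 CPM in A549-WT, where it held 6 counts in all. It was 410.3-fold higher in A549-OE-HIF1b, or 643-fold without A549-WT replicate 1 (adjusted p = 1.06e-10 with all libraries). LBP, which binds bacterial lipopolysaccharide, held 258 counts in A549-OE-HIF1b and 1 in A549-WT, a ratio of 226 (95% counting interval 40.2 to 8966). TWIST1, a factor of mesenchymal transition, was at 2.96 ± 0.512 CPM in A549-OE-HIF1b and had 0 counts in A549-WT, at least 59.0-fold higher. Lower were SOCS3 and the AP-1 subunits FOSL1 and JUNB, at 11.4 ± 2.99 and 34.9 ± 4.13 CPM in A549-OE-HIF1b against 40.4 ± 5.51 and 104 ± 41.2 CPM in A549-WT.

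Of 17 regulators of cytokine mRNA and of IL6 transcription, 6 were higher in A549-OE-HIF1b, 7 were lower and 4 did not pass. That is 76.5% called, 35.3% higher and 41.2% lower, against 74.0%, 38.3% and 35.7% of all tested genes. ZC3H12A encodes Regnase-1, a nuclease that degrades IL6 mRNA, and was 5.72-fold higher, at 27.2, 21.7 and 18.7 CPM in A549-OE-HIF1b against 4.67, 3.89 and 3.27 CPM in A549-WT (adjusted p = 4.22e-07). ZFP36 and ZFP36L1, whose proteins speed the decay of AU-rich mRNAs, were 2.09-fold and 2.69-fold higher. NFKB2, a subunit of NF-κB, was 2.46-fold lower at 27.8 ± 3.24 CPM in A549-OE-HIF1b against 68.4 ± 15.5 CPM in A549-WT, and TENT5A, a poly(A) polymerase, was 17.9-fold lower. Other genes of the list went otherwise. RELA, also a subunit of NF-κB, did not pass, at 77.7 ± 5.19 CPM in A549-OE-HIF1b and 76.2 ± 1.28 CPM in A549-WT (adjusted p = 0.725). ARID5A and NFKBIZ were 1.72-fold and 1.59-fold higher, and 3 of 12 alternatives lost each call. RC3H2 was 2.09-fold lower. A link between the genes of this list and IL6 was not tested. These genes were compared between libraries that also differed in MTAP and SMARCA4.

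**Figure D4:**
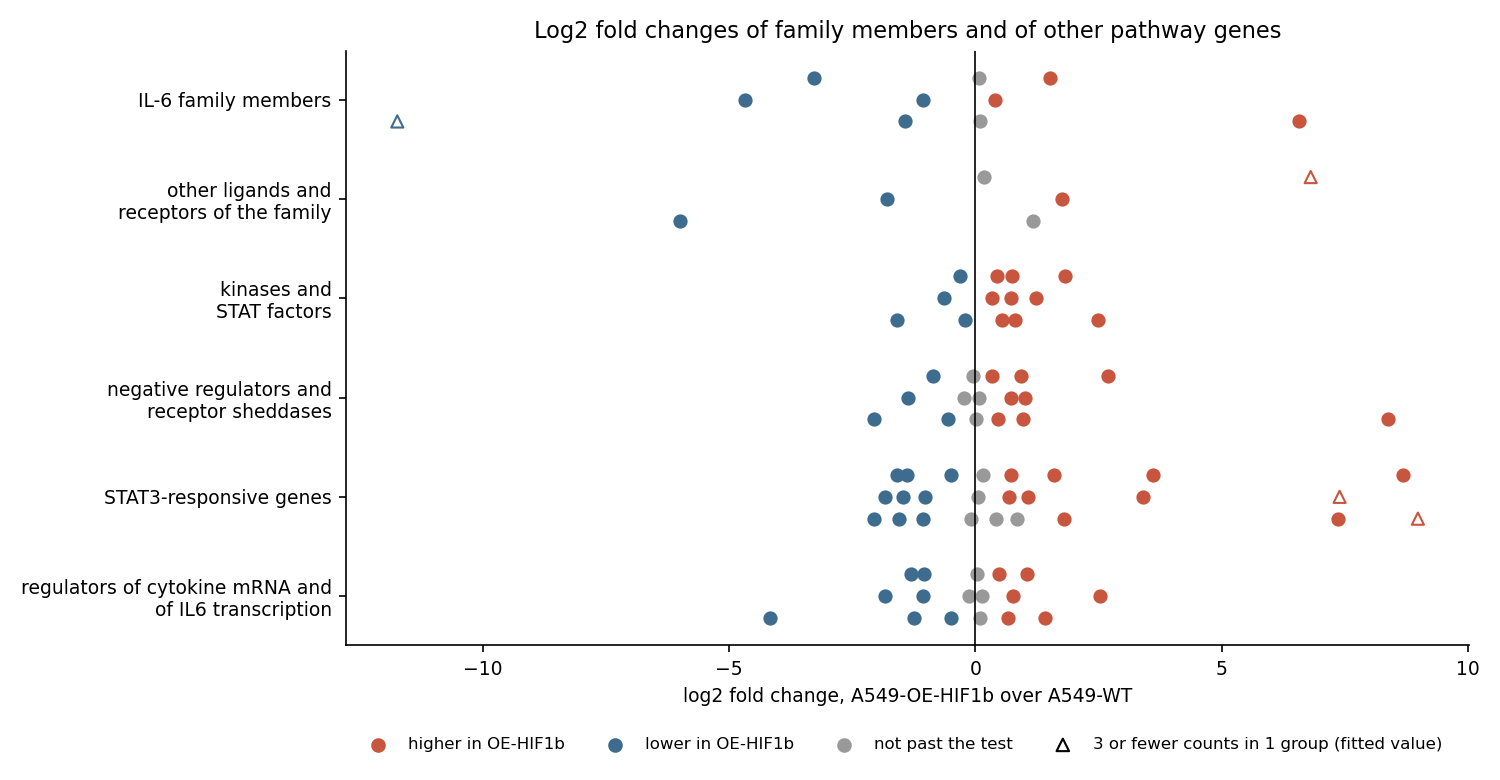
Log2 fold changes (A549-OE-HIF1b over A549-WT) of the tested members and of the tested genes of each other pathway list; points are genes, red where higher, blue where lower and grey where the test was not passed. Open triangles are fitted values of genes with 3 or fewer counts in a group, such as IL6, whose size is not a measured fold; the 13 kinases and STAT factors spread from SHC1 to JAK3 with none in grey.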

How the data were processed

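RNA of 6 libraries labelled A549, 3 overexpressing HIF-1β and 3 wild type by their labels, was analysed. The authors deposited estimated counts per gene, credited to salmon by the name of the table; per the submitters' processing notes, bcl2fastq 2.20 and GRCh38 were used. The version of salmon, its annotation and the strand setting were not stated by any source at hand. PolyA RNA is named in the labels, but their protocol names ribosomal RNA depletion of total RNA. Another 6 columns, named for H460, fit none of the samples listed for this series and were left aside. The deposited estimated counts were rounded to integers.

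Genes were filtered with filterByExpr (smallest count 10), scaled by TMM and tested with the edgeR 4.0.16 quasi-likelihood test in R 4.3.3, and p-values were adjusted by Benjamini-Hochberg across the 16091 genes tested (threshold 0.05). The model held the group alone. CPM are counts per TMM-scaled total of the tested genes; TMM factors were 1.03 to 1.05 in A549-OE-HIF1b and 0.948 to 0.977 in A549-WT. SE is the size of the log2 fold change divided by the square root of F. Folds are ratios of mean CPM; with 0 counts in a group they are bounds, from the summed counts of the other group against 3 counts, each over its group's summed totals, and with 1 to 3 counts they are ratios of summed counts with an exact binomial interval. Counts of 0 and these intervals cover counting error only. Steps were tested on simulated data in which far fewer genes differed than in these libraries. The simulation therefore does not show how TMM scaling behaves here.

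Chi-square per degree of freedom between libraries of a group was 6.03 to 15.8, so no library repeated another. The batch field of the labels repeats the replicate numbers, so these pair the libraries; deviations of same-numbered libraries correlated across genes by 0.023, 0.12 and 0.079 (differently numbered: -0.098 to 0.024), and over genes above the median CPM by 0.12, 0.16 and 0.25 (-0.18 to -0.024). Alternatives were DESeq2 size factors, library totals, no filter, a filter at 1 CPM, the DESeq2 1.42.0 test, a replicate block and leaving out each library. Members and gene lists were chosen with earlier results of these data known. All members are described; from each other list, the up to 3 higher and 3 lower genes with the largest log2 fold change and groups that do not overlap are named, with 9 genes to be given whatever their values; 1 gene that the rule names is not reported here. RELA, ARID5A, NFKBIZ, RC3H2 and ADAM10 are named outside this rule, to show genes of the same lists that went other ways. Symbols of all 10 members matched the reference table.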

Additional observations from a re-analysis of the deposited data

How the results depend on the processing

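The 8 members called kept that count under DESeq2 size factors, library totals, no filter, the filter at 1 CPM, the DESeq2 test and the replicate block, and the count was 7 to 8 when 1 library was left out. The difference was IL6R, whose adjusted p over the 12 alternatives was 0.00443 to 0.0768. LIF, LIFR, OSMR and STAT3 kept their direction and their call in all 12 alternatives. So did IL6, IL11 and CTF1, but these passed the filter through 1 group alone, so their kept calls add little. The sign of CLCF1, never called, turned without A549-WT replicate 1 (log2 fold change -0.065), and that of IL6ST, never called, without A549-OE-HIF1b replicate 2 (-0.026); leaving out 1 library gave -0.065 to 0.31 for CLCF1 and -0.026 to 0.128 for IL6ST, and for these the cause was not tested.

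Among the other pathway genes, 58 were called, and 56 to 59 when 1 library was left out. In all, 11908 genes were called, and 11356 to 11895 when 1 library was left out. Scaling by library totals put the median log2 fold change over the tested genes at 0.147 in place of 0.034, a shift that turned no called member. With the replicate block 8 members, 60 other pathway genes and 11960 genes in all were called; it changed no call of a gene named here. Depth limits genes that held few counts in at least 1 group. Among them were CTF1, CNTFR, OSM, IL6, IL11, IL31RA, PTPN6, FGA, LBP and TWIST1.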
